A study of Capra hircus with 2 samples.

Results

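The miR-532 and miR-660 cluster is a row of microRNA (miRNA) hairpins on the X chromosome, hosted in mammals by the CLCN5 gene. Its members were the entries of both deposited lists named miR-188, miR-362, miR-500, miR-500a, miR-501, miR-502, miR-502a, miR-532 or miR-660, whatever the species in whose name they were listed. Reads were summed per name and hairpin arm, where 5p is the arm nearer the 5′ end of the hairpin and 3p the other. Of these 9 names 8 had a read, and they gave 14 names with an arm out of 1814 in all. The CD49f-positive library held 13 of them and the CD49f-negative library 12, and miR-502 without a letter had no read in either, which allows up to 0.366 and 0.979 reads per 1000000 named miRNA reads (RPM).

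The cells came from the testes of 3 Saanen dairy goats aged 5 months. They were released by enzymes, left overnight so that Sertoli and myoid cells could attach and be left behind, and split by magnetic sorting into a CD49f-positive and a CD49f-negative fraction. CD49f is integrin alpha-6, a chain on the cell surface by which spermatogonial stem cells are enriched, and both fractions are mixtures of primary testicular cells. The submitters' design text describes triplicates, while 1 small RNA library of each fraction was analysed here. Whether a library holds pooled goats or repeats is not stated, so the differences below are not checked by replicates and carry no p-values.

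Hairpins that lie close together in the intron of a host gene are usually copied as part of one long transcript and then cut out one by one. Each hairpin can yield a miRNA from either arm, and the arm that is loaded into an Argonaute protein becomes the abundant one. CLCN5, the host here, encodes a chloride-proton exchanger of endosomes. X-linked protein-coding genes are silenced in male germ cells during meiosis, while a number of X-linked miRNAs have been described in mouse as still transcribed there.

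The mature sequences show how alike the members are, which decides how well their reads can be told apart. They are those of the cattle, pig or horse entries against which the deposited lists name each goat arm, written 5′ to 3′ with the seed (bases 2 to 8, the part that pairs with target mRNAs) in capitals.
miR-532-5p: cATGCCTTgagtgtaggaccgt
miR-188-5p: cATCCCTTgcatggtggagggt
miR-660-5p: tACCCATTgcatatcggagctg
miR-362-5p: aATCCTTGgaacctaggtgtgagt
miR-500-5p: tAATCCTTgctacctgggtgaga
miR-500-3p: aTGCACCTgggcaaggattct
miR-502a-3p: aATGCACCtgggcaaggattca
miR-362-3p: aACACACCtattcaaggattc
miR-532-3p: cCTCCCACacccaaggcttgca
miR-188-3p: cTCCCACAtgcagggtttgca
These 10 arms have 10 different seeds, although several seeds are the same letters moved by a base. miR-500-3p and miR-502a-3p match at 20 of 21 aligned bases, miR-362-5p and miR-500-5p at 18 of 22, miR-532-3p and miR-188-3p at 17 of 21, and miR-532-5p and miR-188-5p at 15 of 22. miR-660-5p has no near match here, its closest being miR-188-5p at 13 of 22.

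In the goat genome used by the authors, whose build is not given in the sources used here, 7 member hairpins were placed on the minus strand of chromosome X within 20.8 kb. In the direction of that strand miR-532 comes first (chrX:78813559-78813659) and miR-188 lies 220 bases further on (chrX:78813229-78813338). They are followed by the second copy of miR-502a (chrX:78803356-78803445), by miR-362 (chrX:78798219-78798316) and by miR-500 (chrX:78796938-78797021). miR-660 (chrX:78794832-78794909) and the first copy of miR-502a (chrX:78792905-78792989) close the row. miR-502b, between miR-502a-2 and miR-362, is not among the member names. In the RefSeq gene table of the goat assembly ARS1.2, a different build, 7 of the hairpins looked up had a symbol. MIR502A, MIR660, MIR500, MIR362 and MIR502B lie inside CLCN5 in that table, while MIR188 and MIR532 stand on sequence with no chromosome assigned. The hairpins are 78 to 110 bases long, with a GC content of 48.9% to 57.6% and a folding energy of -51.8 to -25.0 kcal/mol as deposited.

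The goat hairpins of miR-660 and miR-500, and the copies of miR-502a that resemble miR-500, are printed from the deposited lists with the arms seen in the CD49f-positive library in capitals.
miR-660: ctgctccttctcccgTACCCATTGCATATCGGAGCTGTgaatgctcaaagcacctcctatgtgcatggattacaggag
miR-500: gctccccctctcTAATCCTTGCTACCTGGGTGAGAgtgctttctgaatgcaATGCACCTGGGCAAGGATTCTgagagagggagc
miR-502a-1: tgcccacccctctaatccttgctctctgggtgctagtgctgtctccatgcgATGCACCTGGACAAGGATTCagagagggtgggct
miR-502a-2: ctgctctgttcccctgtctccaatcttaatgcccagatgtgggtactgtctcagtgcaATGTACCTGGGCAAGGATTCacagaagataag
miR-660 had capitals on its 5′ arm only, since no 3p read was placed at that hairpin.

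The libraries held 8196507 reads of named miRNAs in CD49f-positive cells, against 3064462 in CD49f-negative cells, and values in RPM are relative to these totals. Ratios are shares in CD49f-positive over CD49f-negative cells, and 95% intervals are exact Clopper-Pearson intervals of the counts. They leave out all error but that of counting, and without molecular identifiers PCR copies are counted as if they were separate molecules. Marker miRNAs differed between the fractions: those of meiotic and post-meiotic germ cells (miR-34b, miR-34c and miR-449a) summed to 2.25% of reads in CD49f-positive cells, against 11.4% in CD49f-negative cells, those of smooth muscle and mesenchymal cells (miR-143, miR-145, miR-199a, miR-214) to 22.7% and 19.1%, and endothelial miR-126 to 1.43% and 0.755%. Sertoli cell miR-202 had 0.0320% and 0.0823%, red blood cell markers 0.296% and 0.372%, white blood cell markers 0.0177% and 0.0217% and epithelial markers 0.00667% and 0.0244%. All names in the first 5 of these lists had reads in both libraries, while miR-223-5p was at 0 in the CD49f-negative library and miR-141-5p and miR-375-5p were at 0 in the CD49f-positive library. The smooth muscle and mesenchymal sum was mostly miR-143-3p (1813387 and 564567 reads, log2 ratio 0.26), and its other names ran both ways, from 0.56 for miR-145-3p to -1.24 for miR-145-5p and -1.39 for miR-214-5p. White blood cell names with at least 100 summed reads also ran both ways. Their log2 ratios were 0.59 for miR-155-5p, -0.96 for miR-142-3p and -0.79 for miR-142-5p. The part of these markers in the results below was not tested. In such mixed samples, fewer cells of a type and less RNA per cell cannot be told apart.

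The cluster was a minor part of both libraries and was led by miR-500-3p and miR-532-5p in each. All members together had 4523 reads in CD49f-positive cells, 0.0552% of the total, and 2119 reads in CD49f-negative cells, 0.0691%. Their summed share was thus 1.25 times lower in CD49f-positive cells, with a log2 ratio of -0.33 (95% interval -0.40 to -0.25). The direction of this small difference depends on scaling: with TMM scaling, which lifts every log2 ratio by 0.45, it became 0.12. miR-500-3p made up 41.3% of the member reads in CD49f-positive cells (39.9 to 42.8) and 36.8% in CD49f-negative cells (34.8 to 38.9). miR-532-5p made up 37.3% (35.9 to 38.8) and 34.5% (32.5 to 36.6). miR-660-5p stood the other way round, with 7.45% (6.70 to 8.25) in CD49f-positive cells and 14.1% (12.6 to 15.6) in CD49f-negative cells.

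miR-500-3p, the most abundant member, had 1868.2 reads in CD49f-positive cells, against 779.5 in CD49f-negative cells, or 228 and 254 RPM. It ranked 90th and 100th among all names of its library, and its log2 ratio was -0.16 (-0.28 to -0.04). miR-532-5p, described in human tumour cells as a repressor of RUNX3, had 1689 and 731 reads, or 206 and 239 RPM, and a log2 ratio of -0.21 (-0.34 to -0.08). miR-362-5p, described in human cancer cells as a repressor of the deubiquitinase CYLD, had 409 and 141 reads, or 49.9 and 46.0 RPM, and a log2 ratio of 0.11 (-0.16 to 0.40). By shares of named reads these 3 arms were within 1.16-fold of equal, and their levels kept the same order in both libraries. All 3 log2 ratios lay above 0 with TMM, at 0.29, 0.23 and 0.56, and with median-of-ratios scaling, at 0.68, 0.62 and 0.95.

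miR-660-5p, reported in human lung cancer cells to repress the p53 regulator MDM2, had 337 reads in CD49f-positive cells, against 298 in CD49f-negative cells. That is 41.1 RPM (36.8 to 45.7) in CD49f-positive cells and 97.2 (86.5 to 109) in CD49f-negative cells. Its share was 2.37 times lower in CD49f-positive cells, a log2 ratio of -1.24 (-1.47 to -1.01). In CD49f-positive cells it stood below miR-362-5p, at rank 172 against 161, with intervals that overlapped. In CD49f-negative cells it stood above it, at rank 146 against 184, with intervals that did not.

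**Figure D1:**
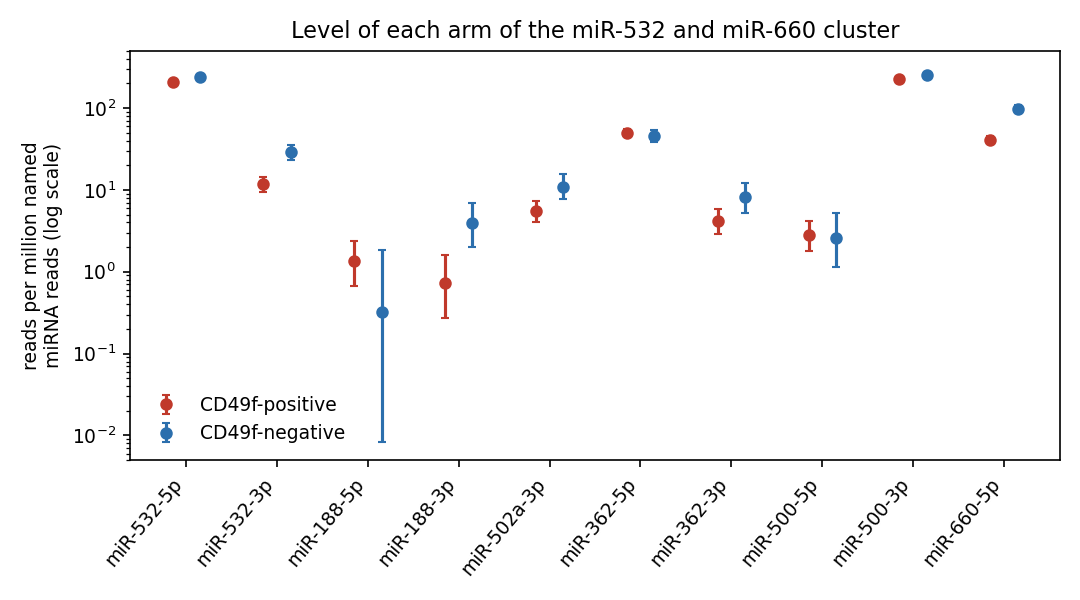
Level over all entries, in RPM on a log scale, of each member arm that had any read at a placed hairpin, in the CD49f-positive (red, left) and the CD49f-negative library (blue, right). Bars are exact 95% counting intervals. The level of miR-532-3p, 11.7 and 28.7, is mostly reads not placed at its hairpin. miR-500-3p and miR-532-5p lie above 200 in both libraries, while miR-660-5p is at 41.1 in CD49f-positive and 97.2 in CD49f-negative cells.

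To be called higher or lower, an arm needed at least 100 reads over both libraries, shares that differed by 2-fold or more, and an interval without equal shares. Of the 14 arms 5 had enough reads, and of these miR-660-5p and miR-532-3p were called lower and none higher. Over all 301 names with enough reads 24.6% were called lower and 1.99% higher, so lower calls were common in this comparison. The median log2 ratio of the 5 arms was -0.21, against -0.43 over the 301 names. miR-660-5p had 60 names below it and 240 above, and miR-362-5p 244 below and 56 above. With TMM, where 13.3% of names were called lower and 8.97% higher, neither call was left, with log2 ratios of -0.80 for miR-660-5p and -0.85 for miR-532-3p. Both calls were also lost with median-of-ratios scaling (4.98% of names lower, 16.6% higher), with a total that left out the 10 most abundant names (17.3% and 5.32%) and with a 4-fold rule (3.65% and 0.664%). Over reads with no mismatch (21.2% and 1.63%) and over reads at placed hairpins (22.1% and 0.866%) the call of miR-660-5p was kept and that of miR-532-3p was not. In both settings miR-532-3p fell under 100 reads, with log2 ratios of -1.43 (-2.32 to -0.54) and -1.48 (-2.30 to -0.66). A minimum of 10 reads (26.4% and 1.67%) gave 4 lower arms, with miR-188-3p and miR-502a-3p added.

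**Figure D2:**
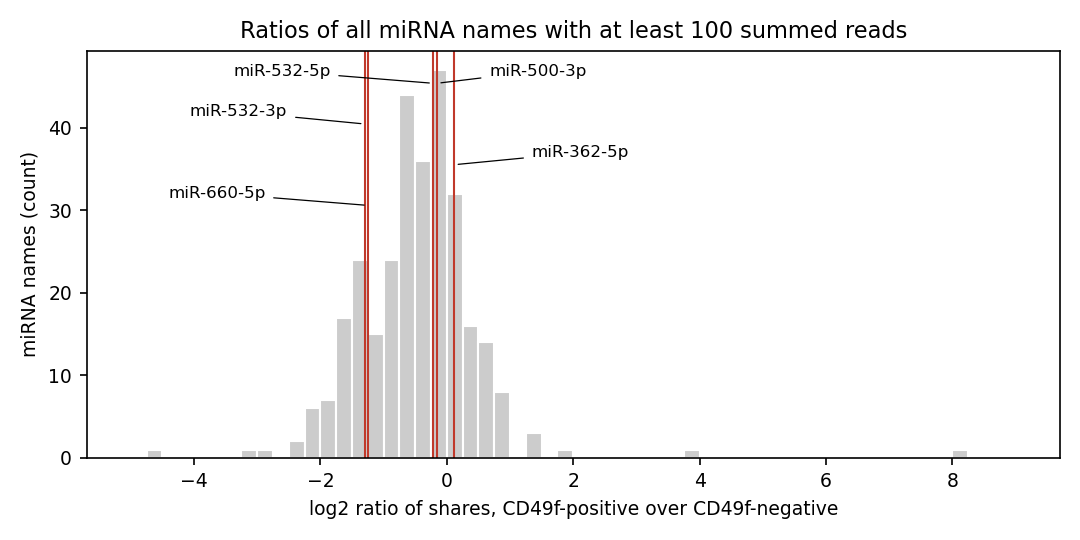
Log2 ratio of shares, CD49f-positive over CD49f-negative, for the 301 miRNA names with at least 100 summed reads (grey bars, number of names per bin), with the 5 measured member arms as red lines. miR-660-5p at -1.24 and miR-532-3p at -1.29 lie in the lower shoulder, and miR-532-5p, miR-500-3p and miR-362-5p at -0.21, -0.16 and 0.11 lie near its peak.

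The call for miR-532-3p rested mostly on reads that were not placed at the goat hairpin. It had 96 reads in CD49f-positive cells, against 88 in CD49f-negative cells, but only 27 and 28 of them were placed at the hairpin on chromosome X. Of the others, 68 and 60 stood in an entry named after the pig hairpin, which was not placed on the genome and had 0 reads without a mismatch. Over the placed reads alone the log2 ratio was -1.48 (-2.30 to -0.66), from fewer than the minimum of 100 reads. All entries not placed on the genome together held 2.16% of the member reads in CD49f-positive cells, against 3.80% in CD49f-negative cells.

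Since the cluster's arms are read from the same pair of libraries, the change of an arm relative to another does not depend on how the libraries are scaled. The 4 abundant arms, miR-532-5p, miR-362-5p, miR-500-3p and miR-660-5p, give 6 such pairs. In 4 of them the interval excluded 0, among them every pair with miR-660-5p. The share of such pairs over all names was not counted, so the count cannot be read as particular to this cluster. In another X-linked cluster the log2 ratios of miR-450b-5p, 0.58 (0.53 to 0.63), and miR-503-5p, -0.66 (-0.87 to -0.44), also had intervals apart. miR-660-5p was 2.12 times lower in CD49f-positive cells relative to miR-500-3p (95% interval 1.77 to 2.54), whose hairpin lies 2028 bases before its own. It was 2.04 times lower relative to miR-532-5p (1.70 to 2.45) and 2.56 times lower relative to miR-362-5p (1.99 to 3.31). Between miR-500-3p and miR-532-5p, 16.6 kb apart, the log2 difference was 0.05 (-0.12 to 0.23). Between miR-362-5p and miR-500-3p it was 0.28 (-0.03 to 0.59), and between miR-362-5p and miR-532-5p 0.33 (0.02 to 0.64), or 0.31 (-0.0035 to 0.62) over placed reads only. These intervals compare 2 libraries and leave out any variation between animals or preparations.

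**Figure D3:**
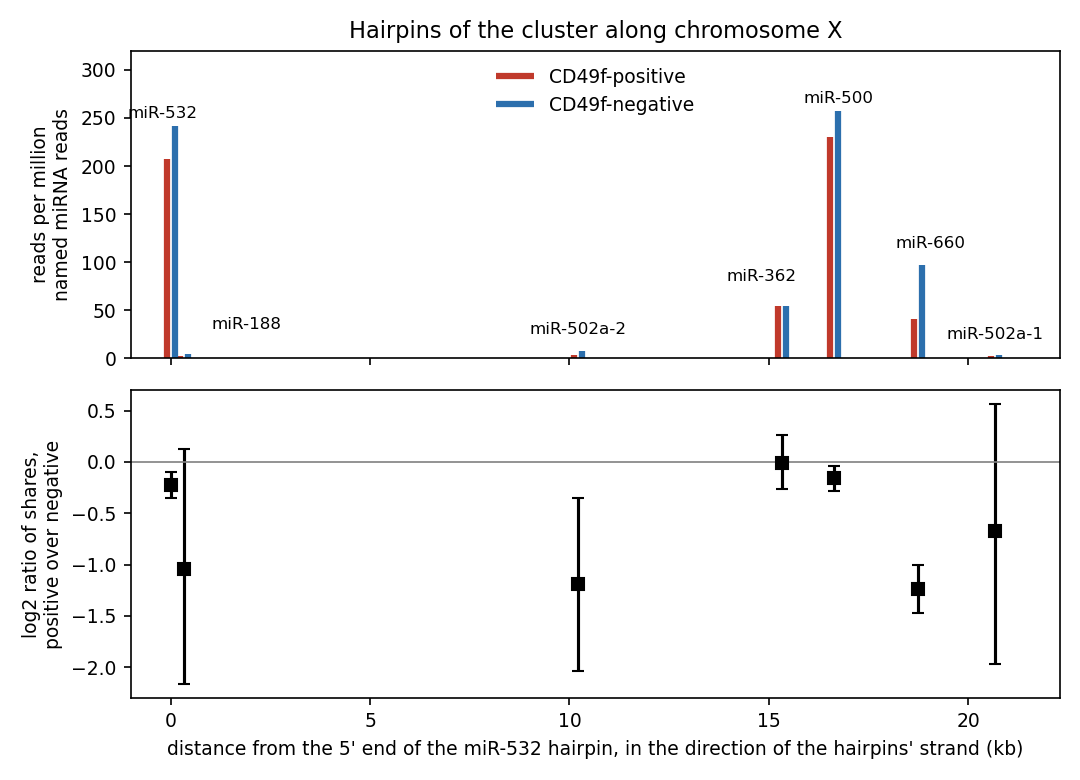
Member hairpins by distance in kb from the 5′ end of miR-532 along the strand they are read from. The upper panel gives RPM at each placed hairpin in CD49f-positive (red, left) and CD49f-negative cells (blue, right), and the lower panel the log2 ratio of shares with its exact 95% interval; miR-660 lies at -1.24, miR-500 at -0.16 and miR-362 at -0.01, and the hairpins with few reads, miR-502a-2, miR-188 and miR-502a-1, lie at -1.18, -1.04 and -0.67, with wide intervals of which that of miR-502a-2 excludes 0.

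The lower level of miR-660-5p was present both in reads with no mismatch and in mismatched reads. Of the miR-660-5p reads 86.9% had no mismatch in CD49f-positive cells (82.9 to 90.4) and 71.1% in CD49f-negative cells (65.6 to 76.2). The gap of 15.8 percentage points compares with a median of 5.91 over the 204 names with at least 100 reads in each library. Counting miR-660-5p itself, 7 of these names had a gap at least as large. For miR-500-3p, miR-532-5p and miR-362-5p it was 9.41, 9.26 and 8.98 points. Over the 293 and 212 reads with no mismatch, miR-660-5p had a log2 ratio of -1.03 (-1.29 to -0.76). Relative to miR-500-3p it was then 1.94 times lower in CD49f-positive cells (1.58 to 2.38), relative to miR-532-5p 1.87 times (1.52 to 2.30) and relative to miR-362-5p 2.40 times (1.77 to 3.27). Over the 44 and 86 mismatched reads its log2 ratio was -2.24 (-2.81 to -1.71), below the interval of the reads with no mismatch. Relative to miR-500-3p it was 2.63 times lower over the mismatched reads (1.71 to 4.09), an interval that overlaps that of the reads with no mismatch.

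The most abundant listed sequence of each of these 4 arms was the same in both libraries. For miR-660-5p it was tacccattgcatatcggagctgt, which runs 1 base past the cattle sequence at its 3′ end and had 165 copies in CD49f-positive and 105 in CD49f-negative cells, 49.0% and 35.4% of the reads at the hairpin. For miR-500-3p it had 941 and 321 copies, for miR-532-5p 1077 and 400, and for miR-362-5p 125 and 43. With these sequences alone miR-660-5p had a log2 ratio of -0.91 (-1.27 to -0.54), which no longer reaches 2-fold, while it was 1.86 times lower in CD49f-positive cells relative to miR-500-3p (1.40 to 2.48).

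**Figure D4:**
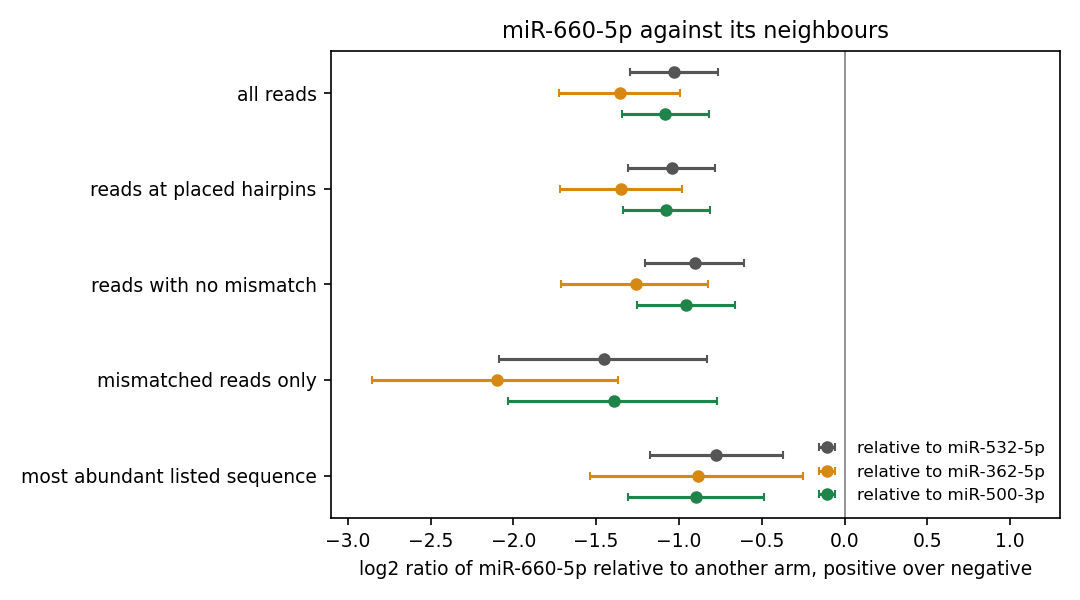
Log2 ratio of miR-660-5p, CD49f-positive over CD49f-negative, relative to miR-532-5p (grey), miR-362-5p (orange) and miR-500-3p (green), with exact 95% intervals, for 5 ways of choosing the reads. All 15 intervals lie below 0, with values from -0.78 for the most abundant sequence relative to miR-532-5p to -2.10 for mismatched reads relative to miR-362-5p. The 5 ways draw on the same miR-660-5p reads or parts of them, so the 15 intervals are not independent.

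Single reads of miR-502a-3p could not be told apart from those of miR-500-3p with these files. The sequences listed for miR-502a-3p fit the miR-500 hairpin better than the miR-502a hairpins. Human miR-502, whose sequence was not compared here, is known for a site in the mRNA of the histone methyltransferase SETD8. Whether the 3p arm fits that site was not tested. miR-502a-3p had 44.7 reads in CD49f-positive cells, against 33.5 in CD49f-negative cells, split over its 2 hairpins as 28.3 and 24 reads at miR-502a-2 and 16.3 and 9.5 at miR-502a-1. Without a mismatch there were 1 and 0.5 reads. Counted from the 5′ end of the cattle sequence, the goat hairpin miR-502a-2 differs from it by C5T, and miR-502a-1 by A1G and G12A. The sequence listed for miR-502a-3p at both hairpins in CD49f-positive cells, atgcacctgggcaaggattc, has 1 mismatch to each of them and 0 to the miR-500 hairpin. In CD49f-negative cells the listed sequences also had 0 mismatches to the miR-500 hairpin and 1 to the hairpin they were listed at. The authors split reads that fit several hairpins, so that miR-500 was assigned 97.5% of the 1938 reads that fit it in CD49f-positive cells and 95.7% of the 823 in CD49f-negative cells. miR-502a-2 was assigned 39.4% and 42.1% of the 72 and 57 reads that fit it. With miR-500-3p, miR-502a-3p and miR-502b-3p pooled, the log2 ratio was -0.20 (-0.32 to -0.08) from 1931 and 826 placed reads, close to that of miR-500-3p alone.

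The use of the less abundant arm differed between the fractions for miR-532 and miR-362, while for miR-500 the interval included 0. At placed hairpins miR-532 had 98.4% of its reads on the 5p arm in CD49f-positive cells (97.7 to 98.9) and 96.2% in CD49f-negative cells (94.6 to 97.5). miR-362 had 92.3% (89.4 to 94.6) and 84.9% (78.6 to 90.0), with miR-362-3p at 34 and 25 reads. In both cases the 3p arm was lower in CD49f-positive cells relative to its own 5p arm, by a log2 value of -1.28 for miR-532 (-2.11 to -0.45) and -1.09 for miR-362 (-1.93 to -0.23). Such differences were not rare: of 121 hairpin names with both arms measured, 20.7% had a minor arm whose interval lay below 0, and the median was -0.06. miR-500 was read almost wholly from its 3p arm, with 1.16% of reads on 5p in CD49f-positive cells, against 1.02% in CD49f-negative cells. Its 5p arm relative to its 3p arm had a log2 value of 0.20 (-1.03 to 1.58). miR-660 had 100% on 5p in both.

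miR-188, which in mouse bone marrow steers stromal cells between bone and fat, was barely detected. miR-188-5p had 11 reads in CD49f-positive cells, against 1 in CD49f-negative cells, and miR-188-3p 6 and 12. The 5p arm thus held 64.7% of the reads in CD49f-positive cells (38.3 to 85.8) and 7.69% in CD49f-negative cells (0.195 to 36.0), intervals that do not overlap but rest on 17 and 13 reads. The hairpin as a whole had a log2 ratio of -1.04 (-2.16 to 0.13), a difference not detectable at this depth. Its neighbour miR-532, 220 bases away, had 1696 and 741 placed reads.

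**Figure D5:**
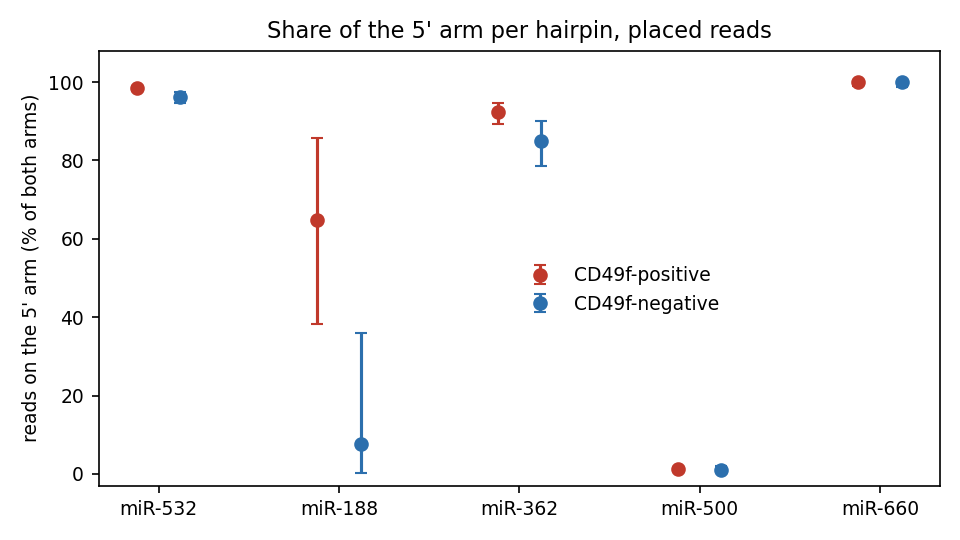
Share of placed reads on the 5′ arm of miR-532, miR-188, miR-362, miR-500 and miR-660, in percent of both arms, for CD49f-positive (red, left) and CD49f-negative cells (blue, right) with exact 95% intervals. miR-502a, whose placed reads were 0% on 5p in both libraries, is not drawn. miR-532, miR-362 and miR-660 lie at 84.9% or above in both libraries and miR-500 at 1.16% and 1.02%, while miR-188 lies at 64.7% and 7.69%.

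The remaining members had few reads. miR-500-5p had 23 and 8 reads, and miR-660-3p 0 and 1. miR-501-3p, described in mouse neurons as a regulator of a glutamate receptor subunit, had 3.33 reads in CD49f-positive and 0.5 in CD49f-negative cells, none at a placed hairpin. miR-500a-3p and miR-502a-5p had 1 read each in CD49f-positive cells, against 0 in CD49f-negative cells. All 9 arms under 100 reads together had 124 and 81 reads. Their summed share was 1.75 times lower in CD49f-positive cells, at -0.81 on the log2 scale (-1.22 to -0.38).

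Other X-linked clusters gave a comparison for the spread within a cluster. The 5 measured arms of the miR-532 and miR-660 cluster ran from -1.29 for miR-532-3p to 0.11 for miR-362-5p. Arms of the miR-424, miR-503, miR-542 and miR-450 cluster ran from -0.66 for miR-503-5p to 1.26 for miR-450a-3p over 10 arms, with a median of 0.19. Of these 1, miR-450a-3p, was called higher and 0 lower. That call rests on 163 and 25 reads over all entries. At placed hairpins the log2 value of miR-450a-3p relative to miR-450a-5p was 0.76, with a wide interval (-0.65 to 2.51). Arms of the X-linked miR-222, miR-221, miR-452 and miR-224 ran from -0.09 to 0.73 over 6 arms, with a median of 0.28 and no call. By level rather than spread, miR-660-5p, at -1.24, lay below all 16 arms of the other clusters, and miR-500-3p, at -0.16, below all but 2 of them. With 1 library per group, whether the clusters differ was not tested.

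With only 2 libraries, likeness to other miRNAs comes down to a single ratio. Among names with at least 1000 reads the 3 closest to miR-500-3p were miR-23b-3p at -0.17, miR-423-5p at -0.15 and miR-92a-3p at -0.17. The 3 closest to miR-660-5p were miR-20a-5p and miR-145-5p, both at -1.24, and miR-1260-5p at -1.20.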

How the data were processed

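Small RNA of both fractions was sequenced from Illumina TruSeq libraries, per the labels' protocols. Reads had been matched by the authors to miRBase entries of mammals, to expressed sequences and to a genome, per the file headers and the column description. The aligner, the miRBase release and the build were not given in the sources used here. Reads per arm are expected counts as deposited by the authors, with shared reads split. Copies of each listed sequence, and its mismatches, are whole counts as deposited. GC content is a deposited percent and folding energy a deposited score. No normalization was recorded.

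Reads were summed per name and arm. An entry with no arm in its name took the arm with more of its reads over both libraries. Unnamed entries (0.555% and 0.611% of reads) were left out. Ratios used shares of named reads with 0.5 reads added. For reads with no mismatch, mismatched reads and placed reads, the shares were of all named reads of the same kind. For the most abundant sequence they were of the summed copies of the listed sequences. Intervals used counts rounded to whole reads, conditional on their sum, and ratios between arms used the conditional odds ratio. For counts of 0 the floor was 3 reads. Every member is accounted for; arms with at least 100 reads are given in full, and the 3 names most alike had the nearest log2 ratios. The likeness to miR-660-5p, the ratios between arms and the comparison of minor arms were chosen after values were seen. Members and lists were chosen with earlier results of these data known. Alternatives were scaling factors from edgeR 4.0.16 (TMM, over names with at least 10 reads) and from DESeq2 1.42.0 (median of ratios, over names above 0 in both libraries) in R 4.3.3, a total without the 10 most abundant names, reads with no mismatch, placed hairpins, the most abundant sequence, other read minimums, a 4-fold rule, 5 added reads and pooled names. Python 3.11.15, SciPy 1.17.1, pandas 2.3.3, numpy 2.4.6 and matplotlib 3.10.9 were used. The calculation was tested on simulated counts.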

Additional observations from a re-analysis of the deposited data

Results flagged for a closer look

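miR-502b-3p lies in the same row of hairpins but is not among the member names, so the comparisons did not use it except in a pool with miR-500-3p. The CD49f-positive library held 19.5 of its reads and the CD49f-negative library 13, which is more than the floor of 3 reads for a count of 0. Its log2 ratio over the hairpin was -0.71 (-1.71 to 0.45). The sequence listed for it in CD49f-positive cells had 1 mismatch to its own hairpin and 1 to that of miR-500, and the 1 listed in CD49f-negative cells had 0 and 1.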

How the results depend on the processing

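The log2 ratio of the summed members, -0.33, was 0.12 with TMM, 0.51 with the median of ratios, -0.019 without the 10 most abundant names in the total, -0.20 over reads with no mismatch, -0.43 without miR-500-3p and -0.22 without miR-660-5p, the last chosen after seeing the data. The count of 2 lower arms became 0 with TMM, with the median of ratios, without the 10 most abundant names and with a 4-fold rule. It was 1 over reads with no mismatch or placed hairpins, where miR-532-3p fell under 100 reads. A minimum of 50 reads gave 3, a setting at which the share over all names was not counted, and a minimum of 10 reads gave 4. The count of 0 higher arms did not change under these settings. These scalings add 0.45, 0.83 and 0.31 to every log2 ratio by construction. The 5p share of miR-532 was 94.6% in CD49f-positive and 89.3% in CD49f-negative cells over all entries, 98.4% and 96.0% over reads with no mismatch, and 98.4% and 96.2% at placed hairpins, where the unplaced entry drops out. The 5p share of miR-188 in CD49f-negative cells was 0% over reads with no mismatch. The log2 ratio of miR-660-5p relative to miR-362-5p, -1.36, was -0.89 for the most abundant sequence, and the cause was not tested. Depth limits arms with under 100 reads. No paired analysis was possible because each group had 1 library.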
